A study of Mus musculus with 6 samples.

Results

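The 9 genes described here make and control the elongation step of cytosolic protein synthesis, with the cap-binding initiation factor eIF4E and its inhibitor. They were chosen by name (Eef1a1, Eef1a2, Eef1b2, Eef1d, Eef1g, Eef2, Eef2k, Eif4e and Eif4ebp1). All 9 were found among the 22036 genes of the deposited table, and all 9 passed the filter on low counts that left 6680 genes for testing. Total RNA of the quadriceps femoris (a thigh muscle) was read as nanopore cDNA from Prr14-KO mice (3 libraries, KO) and Prr14-WT mice (3 libraries, WT). PRR14 links heterochromatin to the nuclear lamina. The labels give no age, strain, sex or treatment, and how the knockout allele was made is not described in them. Nothing in them says whether each library came from its own animal, so the p-values reflect only how far these libraries spread, which may be technical.

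During elongation, eEF1A carries each aminoacyl-tRNA to the ribosome in a complex with GTP, the eEF1B complex recharges eEF1A with GTP, and eEF2 moves the ribosome along the mRNA by a codon. The kinase eEF2K phosphorylates eEF2 and slows it. Mammals carry a pair of eEF1A genes: Eef1a1 is used by most cells, while Eef1a2 is known as the form of adult skeletal muscle, heart and neurons. The mRNAs of eEF1A, eEF1B and eEF2, like those of ribosomal proteins, belong to the class whose translation is under close control by mTORC1.

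The libraries held between 1436099 and 1712975 counts. Levels are CPM, counts per 1e6 counts of a library size scaled by TMM (a scaling that sets most genes level), and errors are SDs of 3 libraries unless an SE or interval is named. Adjusted p-values are from the edgeR quasi-likelihood test over all 6680 genes, and a gene is said to rise or fall only where its adjusted p is under 0.05. Of 12 myofibre marker genes, all detected, 5 fell and 7 did not pass, beside 3.28% of all tested genes called lower. Their summed level was 151984 to 171335 CPM in KO and 210733 to 266824 CPM in WT. These sums are on the TMM scale and are not shares of all counts. Fits with plain library totals took the summed counts of the 6680 tested genes as the total. Over all tested genes the median log2 fold change was 0.017 with TMM and 0.251 with plain library totals. The part of the myofibre genes in that difference was not tested. Prr14 itself had 4, 10 and 3 counts in KO replicates 1 to 3 and 9, 11 and 12 counts in WT replicates 1 to 3 (log2 fold change -1.10, SE 0.46, edgeR adjusted p = 0.196), so the library labelled KO replicate 2 was not set apart from WT by this gene.

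None of the 9 members rose or fell in KO muscle on the TMM scale (0 of 9, against 6.26% of all tested genes). At an unadjusted p under 0.05 there were 2, Eef1a1 and Eif4e, against 20% of all tested genes, and DESeq2 and limma-voom also called 0. The median log2 fold change of the members was 0.082, beside 0.017 for all tested genes, and the median size of the change, sign ignored, was 0.099 for the members and 0.251 for all tested genes. KO and WT libraries were fully apart for 3 members (Eef1b2, Eef2 and Eif4e), where 25.8% of all tested genes showed no overlap. Without the library labelled KO replicate 2 the count of members called was also 0. With plain library totals 3 members passed as higher (Eef1b2, Eef1g and Eef2), in a setting where 9.78% of all tested genes passed as higher and 2.22% as lower.

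**Figure D1:**
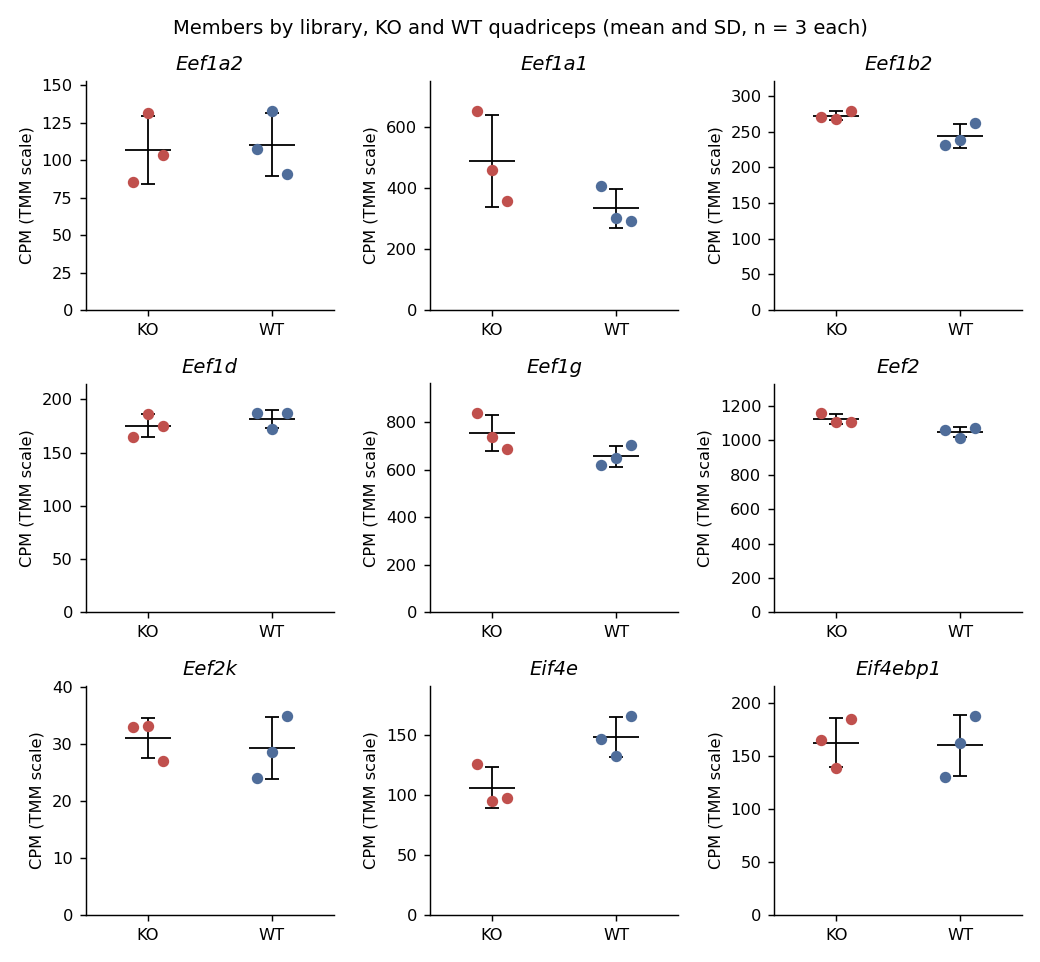
CPM on the TMM scale of each member in the 3 KO libraries (red, left) and the 3 WT libraries (blue, right), with bars for the mean and SD. Eef2 and Eef1b2 have tight groups, Eef1a1 is spread most widely in KO, and the Eif4e libraries of KO lie below those of WT.

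The pair of eEF1A genes was compared first, since the reads of close paralogs have to be told apart before their levels mean anything. Eef1a2 (ENSMUSG00000016349) lies on GRCm38 chromosome 2, 181147653 to 181157014, minus strand, and Eef1a1 (ENSMUSG00000037742) on chromosome 9, 78478449 to 78489151, minus strand. Their coding sequences, with the stop codon, are 1392 and 1389 bases long in GENCODE M21 and are 80.1% identical, with 276 differences over 1389 aligned bases. Of these, 224 fall on the third position of a codon, 34 on the first and 18 on the second. The longest stretch without a difference is 23 bases. The stretches below, 90 bases each, are the most and the least different parts of the alignment, shown because they bear on whether a nanopore read can be assigned to its gene, with the bases that differ in capitals. The most different part runs from coding base 634 to 723 in both genes, with 29 differences.
Eef1a2: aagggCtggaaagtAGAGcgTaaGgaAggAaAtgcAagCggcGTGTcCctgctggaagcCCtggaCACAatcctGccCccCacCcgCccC
Eef1a1: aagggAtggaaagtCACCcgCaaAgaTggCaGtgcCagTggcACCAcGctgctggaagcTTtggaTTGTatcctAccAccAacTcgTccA

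The least different part runs from coding base 55 to 144 in both genes and still holds 9 differences (90% identity).
Eef1a2: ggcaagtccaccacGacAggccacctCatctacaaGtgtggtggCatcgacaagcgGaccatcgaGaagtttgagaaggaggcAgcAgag
Eef1a1: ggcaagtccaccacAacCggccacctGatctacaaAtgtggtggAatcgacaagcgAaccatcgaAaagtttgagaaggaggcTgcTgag

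Eef1a2, the form known from adult muscle, was the less abundant of the pair in all 6 libraries. It had 140, 210 and 181 counts in KO replicates 1 to 3, and 147, 195 and 133 counts in WT replicates 1 to 3. Eef1a1 had 1066, 733 and 622 counts in KO replicates 1 to 3, and 557, 443 and 425 counts in WT replicates 1 to 3. Eef1a1 was therefore 3.44 to 7.61 times as abundant as Eef1a2 in counts in the KO libraries and 2.27 to 3.79 times in the WT libraries. Per kilobase of transcript (2084 bases for Eef1a2 and 1794 for Eef1a1), Eef1a1 stood 3.99 to 8.85 times above Eef1a2 in KO and 2.64 to 4.402 times above it in WT. Eef1a2 was thus not the leading form of the pair at the level of counted reads. The labels give no age, so the mice are not known to be adult. Reads of bulk muscle RNA measure neither protein nor the myofibres alone.

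The transcripts differ in base composition, with 60.6% G and C in Eef1a2 and 47.4% in Eef1a1, and the cDNA was amplified by PCR before sequencing; the part of either in the order of the pair was not tested. Eef1a1 is known to be expressed in the other cells of a muscle too. Fibroblast markers (10 of 10 tested) summed to 3800 to 4760 CPM in KO and 3895 to 5913 CPM in WT, endothelial markers (10 of 10) to 502 to 573 CPM in KO and 415 to 564 CPM in WT, and macrophage and leukocyte markers (7 of 12) to 244 to 290 CPM in KO and 212 to 828 CPM in WT, with no marker of these lists at 0 in all libraries. WT replicate 1 had the top sum of the fibroblast list and of the macrophage and leukocyte list, and KO replicate 2 that of the endothelial list. None of these markers rose or fell with edgeR (1 fibroblast marker had an unadjusted p under 0.05), and their part in the Eef1a1 level was not tested. In bulk tissue, more cells of a type and more RNA per cell cannot be told apart. RefSeq names the Eef1a1 copies Eef1a1-ps1 and Eef1a1-ps2, and neither is a row of the deposited table, so how reads from such copies were counted is not known here. The same holds for the Eef2 copy Eef2-ps2.

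Between genotypes, Eef1a2 was close to level. It stood at 85.7, 131 and 104 CPM in KO replicates 1 to 3, and at 107, 133 and 91.1 CPM in WT replicates 1 to 3, with wide overlap. The log2 fold change was -0.05 (SE 0.18, 95% interval -0.44 to 0.34, edgeR adjusted p = 0.923), and its sign turned with plain library totals (0.18). The interval leaves room for changes between 0.737-fold and 1.27-fold.

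Eef1a1 stood higher in most KO libraries but did not pass the test. It had 652, 458 and 356 CPM in KO replicates 1 to 3, and 406, 302 and 291 CPM in WT replicates 1 to 3. KO replicates 1 and 2 were above every WT library, while KO replicate 3 lay below WT replicate 1. The mean was 489 ± 150 CPM in KO and 333 ± 63.7 CPM in WT, for a log2 fold change of 0.55 (SE 0.23, 95% interval 0.01 to 1.10, edgeR adjusted p = 0.242). KO replicate 1 carried much of this: leaving it out gave a log2 fold change of 0.29 (edgeR adjusted p = 0.414), and leaving out the library labelled KO replicate 2 gave 0.60 (edgeR adjusted p = 0.345). Without KO replicate 3 it was 0.74 and passed (edgeR adjusted p = 0.041). With no filter on low counts it was still 0.55 but passed (edgeR adjusted p = 0.000915). In that setting 344 genes passed as higher and 362 as lower, against 199 and 219 with the filter. Every gene with a count was tested there, and 12193 genes had one in KO replicate 3 alone, against 6680 tested with the filter. More calls there are thus not a larger share of tested genes. Eef1a1 did not pass with DESeq2 (DESeq2 adjusted p = 0.179) or limma-voom (limma-voom adjusted p = 0.184).

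As a share of both eEF1A genes, Eef1a2 made up 11.6%, 22.3% and 22.5% of counts in KO replicates 1 to 3, and 20.9%, 30.6% and 23.8% in WT replicates 1 to 3. The exact 95% binomial interval of KO replicate 1 (9.85% to 13.6%) lay below those of all other libraries, and it covers counting error only. KO replicates 2 and 3 lay between the lowest and the middle WT library. The log2 ratio of Eef1a2 to Eef1a1 was -2.17 ± 0.66 in KO and -1.59 ± 0.37 in WT, a difference of -0.58 (exact two-sided permutation p = 0.4, or 0.6 adjusted over the 3 ratios computed, n = 3 each). The difference was -0.20 without KO replicate 1 and -0.37 without WT replicate 2. With 3 libraries against 3 the smallest possible p is 0.1, so a shift between the paralogs could not have reached 0.05 in this test.

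**Figure D2:**
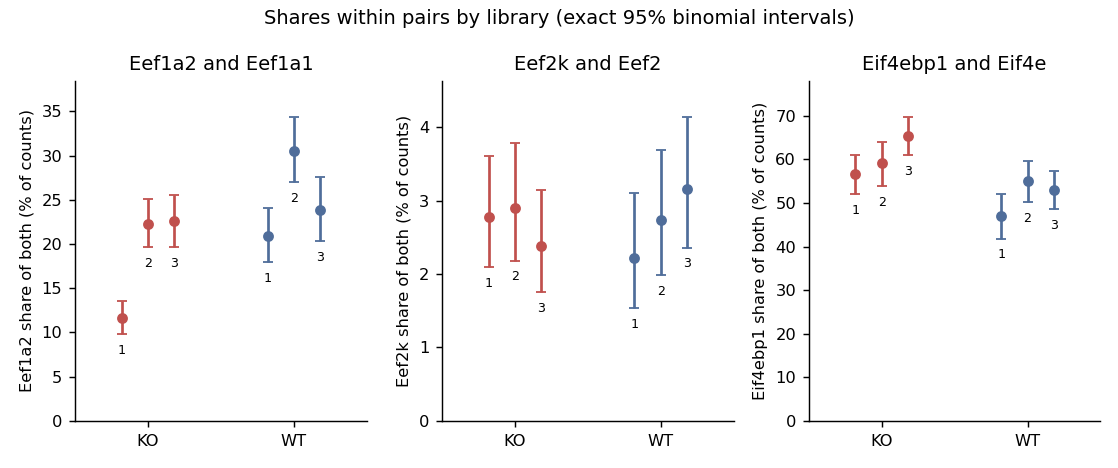
Share of the first gene in the counts of each pair, as percent, for the 3 KO libraries (red, left) and the 3 WT libraries (blue, right), labelled by replicate number, with exact 95% binomial intervals. KO replicate 1 stands alone at 11.6% for Eef1a2, and the Eif4ebp1 shares of KO lie above those of WT.

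By a rule based on likeness alone, the genes whose log2 CPM followed Eef1a2 most closely over the 6 libraries were Cox6a2 (Pearson r = 0.982), Cox7b (0.979) and Tmem204 (0.977). Cox6a2 and Cox7b encode subunits of cytochrome c oxidase, Cox6a2 being the form of heart and skeletal muscle. Those that followed Eef1a1 most closely were Pfn1 (profilin, an actin-binding protein; r = 0.985), Ormdl3 (0.980) and Cetn2 (centrin; 0.978). The correlations are the highest of 3721 genes with a mean of at least 20 CPM, and are given as a description. They rest on 6 libraries, and all genes of a library share its depth and scaling. Pfn1, picked for this likeness, had 215, 139 and 114 CPM in KO replicates 1 to 3 and 114, 83.8 and 73.3 CPM in WT replicates 1 to 3.

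The eEF1B complex is the exchange factor of eEF1A, with Eef1b2 and Eef1d encoding the subunits that exchange the nucleotide and Eef1g a structural subunit. Eef1b2 (ENSMUSG00000025967, chromosome 1, 63176825 to 63180486, plus strand) had 270, 267 and 279 CPM in KO replicates 1 to 3, and 231, 238 and 262 CPM in WT replicates 1 to 3. Every KO library was above every WT library, by a narrow margin at the nearest pair. The log2 fold change was 0.16 (SE 0.11, 95% interval -0.08 to 0.40, edgeR adjusted p = 0.482).

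Eef1g (ENSMUSG00000071644, chromosome 19, 8967041 to 8978479, plus strand) had 836, 738 and 686 CPM in KO replicates 1 to 3, and 617, 647 and 704 CPM in WT replicates 1 to 3. Only KO replicate 3 fell within the WT range. The log2 fold change was 0.20 (SE 0.11, 95% interval -0.03 to 0.43, edgeR adjusted p = 0.328). Eef1d (ENSMUSG00000055762, chromosome 15, 75894205 to 75909556, minus strand) had 165, 186 and 175 CPM in KO replicates 1 to 3, and 187, 172 and 187 CPM in WT replicates 1 to 3, for a log2 fold change of -0.05 (SE 0.12, edgeR adjusted p = 0.866). With library totals its sign turned (0.18).

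The annotated exons of Eef1d share 277 bases with those of Naprt on the same strand, and those of Eef1b2 share 9 bases with Ndufs1 on the opposite strand, so a few reads could have been split there. Summed over its 3 genes, eEF1B stood at 1271, 1192 and 1140 CPM in KO replicates 1 to 3, and at 1035, 1056 and 1154 CPM in WT replicates 1 to 3. The sum of both eEF1A genes was 738, 589 and 460 CPM in KO replicates 1 to 3, and 514, 435 and 382 CPM in WT replicates 1 to 3. Both sums overlapped between the genotypes.

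Eef2 (ENSMUSG00000034994, chromosome 10, 81176631 to 81182498, plus strand), the translocase, varied little between libraries. It had 1156, 1107 and 1106 CPM in KO replicates 1 to 3, and 1059, 1016 and 1071 CPM in WT replicates 1 to 3. The coefficient of variation was 2.55% in KO and 2.77% in WT, beside 2.22% and 6.68% for Eef1b2 and 30.8% and 19.1% for Eef1a1 in KO and WT. All KO libraries lay above all WT libraries, at a log2 fold change of 0.10 (SE 0.09, 95% interval -0.09 to 0.29, edgeR adjusted p = 0.607). The interval spans 0.937-fold to 1.22-fold on the TMM scale. With library totals the 95% interval was 0.14 to 0.53 on the log2 scale.

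Its kinase gene Eef2k was the rarest member, with 54, 53 and 47 counts in KO replicates 1 to 3, and 33, 42 and 51 counts in WT replicates 1 to 3. On the TMM scale it stood at 31.0 ± 3.55 CPM in KO and 29.2 ± 5.44 CPM in WT (log2 fold change 0.08, SE 0.21, 95% interval -0.37 to 0.54, edgeR adjusted p = 0.882). The interval spans changes between 0.771-fold and 1.45-fold. Eef2k (ENSMUSG00000035064, chromosome 7, 120842831 to 120907450, plus strand) lies 6.55 Mb from Prr14 on the same chromosome, and no change was called there. The log2 ratio of Eef2k to Eef2 was -5.17 ± 0.15 in KO and -5.16 ± 0.26 in WT, a difference of -0.01 (exact two-sided permutation p = 1, n = 3 each).

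Eif4e encodes the protein that binds the mRNA cap at the start of translation, and 4E-BP1, made from Eif4ebp1, holds eIF4E back until mTORC1 phosphorylates it. Eif4e (ENSMUSG00000028156, chromosome 3, 138526179 to 138559696, plus strand) had 126, 95.6 and 97.4 CPM in KO replicates 1 to 3, and 147, 133 and 166 CPM in WT replicates 1 to 3. All KO libraries were below all WT libraries. Of the members it came nearest to passing, with a mean of 106 ± 17.1 CPM in KO and 149 ± 16.8 CPM in WT. The log2 fold change was -0.48 (SE 0.15, 95% interval -0.81 to -0.15, edgeR adjusted p = 0.0806), and -0.41 without the library labelled KO replicate 2 (edgeR adjusted p = 0.196). It passed as lower when KO replicate 1 was left out (-0.62, edgeR adjusted p = 0.0211). When low counts were not filtered it was -0.49 and passed (edgeR adjusted p = 0.0365), in a setting where more genes were tested and more passed. Eif4e did not pass with DESeq2 (DESeq2 adjusted p = 0.166) or limma-voom (limma-voom adjusted p = 0.0937). With library totals Eif4e stood at -0.24 on the log2 scale (edgeR adjusted p = 0.337), and KO and WT libraries overlapped.

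Eif4ebp1 (ENSMUSG00000031490, chromosome 8, 27260329 to 27276674, plus strand) had 165, 138 and 184 CPM in KO replicates 1 to 3, and 130, 162 and 188 CPM in WT replicates 1 to 3, with full overlap (log2 fold change 0.02, SE 0.16, 95% interval -0.32 to 0.36, edgeR adjusted p = 0.964). Set against Eif4e within each library, which needs no scaling, Eif4ebp1 made up 56.6%, 59.1% and 65.4% of the counts of both genes in KO replicates 1 to 3, and 47.0%, 55.0% and 53.0% in WT replicates 1 to 3. All KO shares lay above all WT shares. The log2 ratio was 0.61 ± 0.28 in KO and 0.09 ± 0.24 in WT, a difference of 0.52, or 1.43-fold (p = 0.1 in the two-sided exact permutation test, which is the least it can give, and 0.3 adjusted over the 3 ratios, n = 3 each). Leaving out 1 library at a time kept it between 0.36 and 0.63, with 0.56 without the library labelled KO replicate 2.

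**Figure D3:**
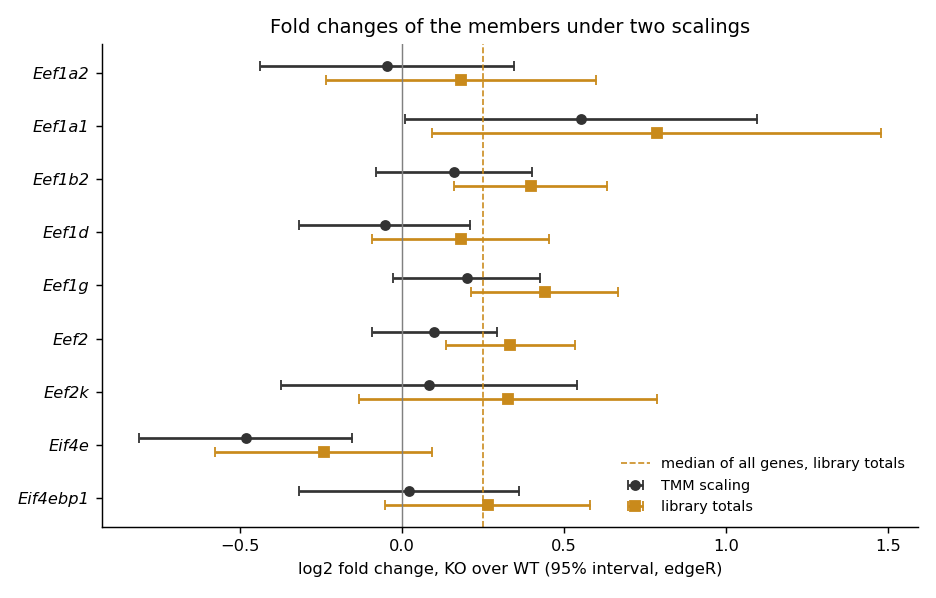
Log2 fold change of each member, KO over WT, with the 95% interval of the edgeR test, under TMM scaling (circles) and library totals (squares); the dashed line is the median of all genes under library totals, 0.251. On library totals the points shift right together, and the intervals of Eef1a1, Eef1b2, Eef1g and Eef2 exclude 0, while under TMM only those of Eef1a1 and Eif4e do.

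The effect of scaling was therefore traced member by member. As plain shares of all counts, the 9 members held 0.380%, 0.339% and 0.314% of counts in KO replicates 1 to 3, and 0.278%, 0.262% and 0.255% in WT replicates 1 to 3, with no overlap. The CPM given next divide by all counts of a library, while the fitted fold changes used the totals of the tested genes. Eef1b2 stood at 291 ± 3.80 CPM of the plain library total in KO and 221 ± 1.93 in WT (log2 fold change 0.40, SE 0.11, edgeR adjusted p = 0.0305). Eef1g stood at 807 ± 99.5 in KO and 596 ± 6.08 in WT (0.44, SE 0.11, edgeR adjusted p = 0.0160), and Eef2 at 1200 ± 56.1 in KO and 954 ± 50.4 in WT (0.33, SE 0.09, edgeR adjusted p = 0.0306). The median of the members on this scale was 0.33, beside 0.25 for all tested genes. KO and WT libraries were fully apart for 4 members (Eef1b2, Eef1d, Eef1g and Eef2), beside 33.4% of all tested genes. On the TMM scale these 4 had log2 fold changes of -0.05 (Eef1d) to 0.20 (Eef1g), and none passed. Eef1a1 (0.55) and Eif4e (-0.48) lay further from level there and did not pass either. With library totals Eef1b2, Eef1g and Eef2 passed as higher, while Eef1d did not (edgeR adjusted p = 0.381). Eif4e stood lower on that scale too (-0.24).

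Per kilobase of transcript the members spanned a wide range in KO, in the order Eef1g (404 ± 40.7 CPM per kb), Eef2 (363 ± 9.28), Eef1a1 (272 ± 83.8), Eef1b2 (140 ± 3.11), Eif4ebp1 (81.3 ± 11.7), Eef1d (75.8 ± 4.66), Eef1a2 (51.3 ± 11.0), Eif4e (21.3 ± 3.43) and Eef2k (4.71 ± 0.539). The order of the means was the same in WT, where Eef1g had 352 ± 23.8, Eef2 339 ± 9.39, Eef1a1 186 ± 35.5 and Eef1a2 53.0 ± 10.1 CPM per kb. Eef1g and Eef2 did not differ beyond their spread in WT. Nanopore cDNA reads can span whole transcripts, so counts need not grow with length as they do for short reads, and the scale also rests on 1 annotated transcript per gene.

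The other genes of translation were read from lists chosen with earlier results of these data known. Over the 6 lists, with 198 genes tested, 6 fell and 1 rose. Of 17 other elongation and termination factors tested, 0 passed, beside 2.98% of all tested genes called higher and 3.28% called lower, and the median log2 fold change was -0.14. The smallest p belonged to Eef2kmt, the methyltransferase of eEF2, at 36.8 ± 3.68 CPM in KO and 22.6 ± 7.50 CPM in WT (log2 fold change 0.69, edgeR adjusted p = 0.116), and to Dph3, a gene of the diphthamide pathway that modifies eEF2, at -0.35 (edgeR adjusted p = 0.138). Of 8 factors of mitochondrial translation 0 passed (median 0.08), led by Mtif3 at 0.48 and Mrrf at 0.49 (edgeR adjusted p = 0.184 and 0.194). These 4 genes were the ones with an unadjusted edgeR p under 0.05, 2 in each list, and DESeq2 and limma-voom called 0 in both lists.

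Of 50 initiation factors tested, 2 fell, 0 rose and 48 did not pass (median -0.01). Eif4g3, a large scaffold that joins eIF4E to the ribosome, had 39.4 ± 7.51 CPM in KO and 76.8 ± 19.5 CPM in WT (log2 fold change -0.96, SE 0.21, edgeR adjusted p = 0.0125). It no longer passed when WT replicate 2 (edgeR adjusted p = 0.0698) or WT replicate 3 (edgeR adjusted p = 0.0601) was left out. Eif1, a factor of start codon selection, had 1942, 2808 and 2558 CPM in KO replicates 1 to 3, and 3283, 3338 and 3433 CPM in WT replicates 1 to 3 (edgeR adjusted p = 0.0376 at a log2 fold change of -0.46, SE 0.12). This call held in 7 of 15 alternatives. Eif3f, chosen after its values were seen, had the largest log2 fold change of the list, 2.15 (SE 0.54, edgeR adjusted p = 0.0584). Its levels were 44.7, 43.7 and 12.03 CPM in KO replicates 1 to 3 and 7.30, 6.13 and 8.90 CPM in WT replicates 1 to 3. With library totals Eif3f passed as higher (2.39, edgeR adjusted p = 0.0290), where 9.78% of all tested genes did.

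Among the 36 tested genes of mTORC1, MNK and related signalling, 3 fell, 1 rose and 32 did not pass (median 0.08). Pik3r1, the regulatory subunit of PI3 kinase, had 28.9 ± 6.41 CPM in KO and 62.1 ± 13.01 CPM in WT (log2 fold change -1.11, SE 0.21, edgeR adjusted p = 0.00544). It passed in all 15 alternatives. Prkaa2, a catalytic subunit of AMP-activated kinase, fell by 0.61 on the log2 scale (edgeR adjusted p = 0.0334), and Akt2, the AKT kinase of insulin signalling, rose by 0.68 (edgeR adjusted p = 0.0411). Each of these passed in 7 of 15 alternatives. Mknk1, an eIF4E kinase gene named after its values were seen, did not pass, at 38.3 ± 1.28 CPM in KO and 24.5 ± 4.86 CPM in WT.

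Of 7 tested genes of the eIF2 kinases and the ATF4 response, 1 fell: Chac1, an enzyme that breaks down glutathione, had 5.93 ± 3.34 CPM in KO and 21.8 ± 4.43 CPM in WT (log2 fold change -1.85, SE 0.36, edgeR adjusted p = 0.00581). It passed in all 15 alternatives. Of 80 ribosomal protein genes 0 passed with edgeR, where 6 had an unadjusted p under 0.05 (20% of all tested genes did), and 0 with DESeq2 or limma-voom, and their log2 fold changes lay between -0.34 and 0.35 with a median of 0.02. The smallest p belonged to Rpl38 at 0.32 (edgeR adjusted p = 0.0616) and Rpl22l1 at 0.35 (edgeR adjusted p = 0.105). Rpl38 passed in 2 of 15 alternatives and Rpl22l1 in 1. With library totals 18 of the 80 passed as higher, where 9.78% of all tested genes did, and the median was 0.26, beside 0.25 for all tested genes. The summed level of that list was 53608 to 54092 CPM in KO and 52310 to 53150 CPM in WT. The members known to share their translational control with ribosomal protein mRNAs had fitted RNA changes of -0.05 (Eef1a2 and Eef1d) to 0.55 (Eef1a1) on the TMM scale. Apart from Eef1a1 they lay within the range of the ribosomal protein genes. RNA levels do not measure translation, so the shared control was not tested.

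**Figure D4:**
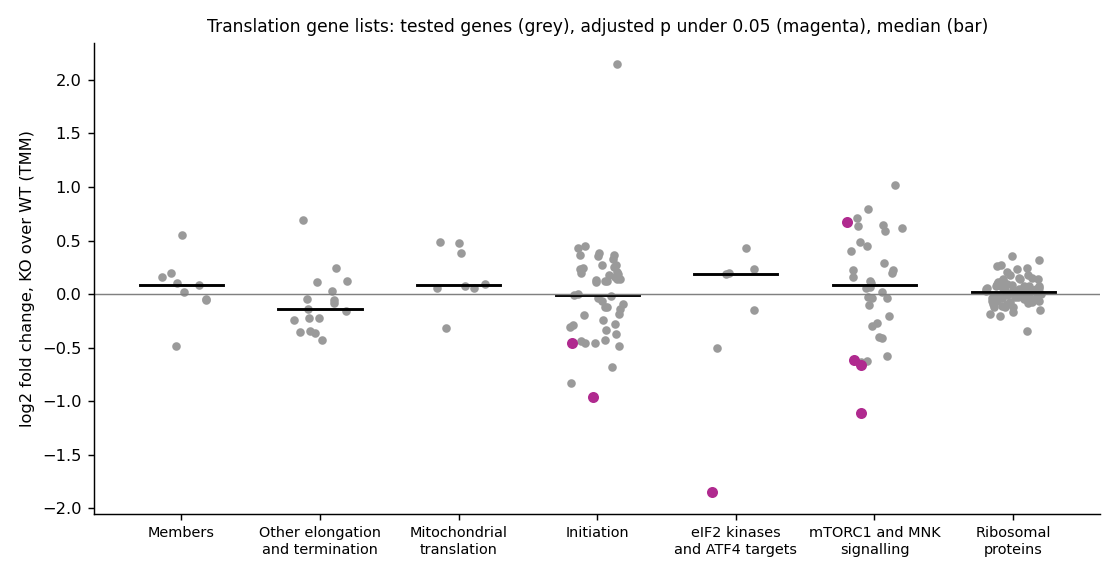
Log2 fold change, KO over WT on the TMM scale, of every tested gene of the members and of the 6 lists, with genes of adjusted p under 0.05 in magenta and a bar at each median. The members and the ribosomal protein genes hold no magenta point, and the lowest one is Chac1 at -1.85.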

How the data were processed

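Per the labels' protocols, TRIzol RNA was reverse transcribed with template switching, and the PCR-amplified cDNA was read on an Oxford Nanopore instrument. The submitters' processing notes name minimap2, DESeq2 1.6.3 and GRCm38. How reads were counted, on which annotation and with or without strand, is not stated in these sources. The authors deposited counts as whole reads for each Ensembl gene. The authors' CPM divide them by a total of which the listed genes make up 95.9% to 96.9%, and served only as a check.

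The test was edgeR 4.0.16 in R 4.3.3 (filterByExpr at minimum count 10 and minimum total 15, TMM, robust quasi-likelihood, Benjamini-Hochberg over 6680 genes). Steps were tested on simulated data. An SE is the log2 fold change divided by the square root of F. DESeq2 1.42.0 and limma 3.58.1 were alternatives. Ratios within a library had 0.5 added to each count. Symbols were matched for 22022 of 22036 identifiers. Coordinates and coding sequences are from GENCODE M21 on GRCm38. Lengths are of the APPRIS principal transcript, then the CCDS, then the longest one. Likeness used log2 CPM with a prior count of 2.

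The members and lists were chosen with earlier results of these data known. Named genes were all members, up to 4 called genes of each list by smallest p (or 2 where none was called), and the 3 genes most like Eef1a2 and Eef1a1. 1 called gene of the signalling list is not reported here. Libraries of each genotype are numbered 1 to 3 in accession order.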

Additional observations from a re-analysis of the deposited data

How the results depend on the processing

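In 15 alternatives per gene, Eef1a1, Eef1b2, Eef1g and Eef2 kept a positive and Eif4e a negative log2 fold change. Signs turned for uncalled members: Eef1a2 with library totals (0.18), without WT replicate 2 (0.08) and without KO replicate 1 (0.089), Eef1d with library totals (0.18), Eef2k without WT replicate 1 (-0.066) and Eif4ebp1 without WT replicate 1 (-0.14) or KO replicate 3 (-0.08). With 1 library left out, Eef1a2 ran from -0.22 to 0.089, Eef2k from -0.066 to 0.22 and Eif4ebp1 from -0.14 to 0.15. The difference of the Eef2k to Eef2 log2 ratio turned positive without KO replicate 3 (0.08), WT replicate 2 (0.011) or WT replicate 3 (0.11), in a range of -0.14 to 0.11. That of Eef1a2 to Eef1a1 ran from -0.77 to -0.20 and that of Eif4ebp1 to Eif4e from 0.36 to 0.63 with 1 library left out.

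With library totals 653 genes passed as higher, 3 members among them, and 33 list genes. With no filter 344 genes passed as higher and 362 as lower, 1 member each way (Eef1a1 and Eif4e), and 4 list genes as higher. List genes passing as higher were 2 with DESeq2 size factors, 3 with upper-quartile scaling, 2 without the 20 most abundant genes in library sizes, 2 with DESeq2, 0 with limma-voom and 2 with robust=FALSE. Leaving out 1 library gave 83 (WT replicate 2) to 179 genes higher and 154 to 187 lower, 0 to 1 members each way, and 0 to 5 list genes higher and 3 to 5 lower; without WT replicates 1 and 3 the genes higher were 101 and 129. The cause was not tested. The alternative that adds Eef1a1 copies was not run, since the table has no such rows. No paired analysis was possible because the labels share 1 library number at most between genotypes. Eef2k had the fewest counts of the members, 33 to 54 a library.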
